A study of Mus musculus with 6 samples.

Results

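Mir143, Mir145a, Mir214 and Mir126a are microRNA genes known for their products in the cells that build vessels and connective tissue. miR-143 and miR-145a are abundant in smooth muscle, miR-214 in fibroblasts and other mesenchymal cells, and miR-126a in endothelium. The 4 hairpins were selected on the tag levels measured at the base after them in these same libraries, so every difference between tissues given here is a description and carries no test. They are 4 of 105 microRNA hairpins located in the data, the other 101 having been found by matching mature sequences of RefSeq to tags. The members themselves were taken by position, as all 5′ ends on the same strand up to 2 kb from where the mature microRNA starts. The study surveyed 5′-monophosphate ends of polyadenylated RNA by parallel analysis of RNA ends (PARE). Whole ovary, lung, kidney, liver, brain and spleen of adult mice of BALB-c background were used, with no treatment or allele named in the labels and 1 library per tissue. Whether a library holds 1 animal or a pool is not given in the sources used here. In whole tissue, fewer cells of a type and less RNA per cell cannot be told apart.

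A microRNA is cut out of a long primary transcript as a hairpin by the nuclease Drosha in the nucleus. The RNA that follows the hairpin keeps the poly(A) tail and begins with a 5′ monophosphate, so PARE can capture it, and its first base marks the cut. Dicer then trims the hairpin in the cytoplasm, and the mature strand, which has no poly(A) tail of its own, is loaded into Argonaute. The following kinds of 5′ ends were therefore read at each locus, namely at the base after the hairpin (the hairpin end), at the first mature base (the mature start), and at all other bases of the host transcript. In RefSeq, Mir126a lies within Egfl7, the gene of a protein secreted by endothelium. Mir214 lies within the noncoding RNA gene Dnm3os, itself inside Dnm3, and Mir143 and Mir145a lie together within the noncoding RNA gene Carmn. These hosts are background from RefSeq, since no annotation of the mm9 build was used.

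The sequences show how exactly the tags meet the hairpins. The RefSeq (GRCm38.p6) sequences used here held mature entries for 2 of the 4 members, Mir214 and Mir126a. Sequences of Mir143 and Mir145a were not among those used, so they are not printed. The positions given with the sequences are mm9 positions counted from the tags. In the mature strands the seed, bases 2 to 8, is in capitals, and the seeds differ. In the hairpins the mature strand of the 3′ arm is in capitals. In the tags from the hairpin end, capitals mark the bases that still belong to the RefSeq hairpin. Both RefSeq hairpins are annotated past the hairpin end as defined above.
mmu-miR-214-3p, chr1:164153569-164153590, plus strand: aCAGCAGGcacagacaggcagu
Mir214 hairpin, chr1:164153499-164153608, plus strand: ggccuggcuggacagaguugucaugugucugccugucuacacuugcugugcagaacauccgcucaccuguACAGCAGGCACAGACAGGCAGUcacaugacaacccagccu
Mir214 most frequent tag at the hairpin end, from 164153590: TCACATGACAACCCAGCCTg
mmu-miR-126a-3p, chr2:26446922-26446943, plus strand: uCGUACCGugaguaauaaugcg
Mir126a hairpin, chr2:26446877-26446949, plus strand: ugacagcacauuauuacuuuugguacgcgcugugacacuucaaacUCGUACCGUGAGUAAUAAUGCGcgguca
Mir126a most frequent tag at the hairpin end, from 26446944: CGGTCAgcagcccagcgccag
The Mir126a tag began at the first base after the 22 nt of the mature strand. The Mir214 tag began 21 nt after the mature start, at the last base of the 22 nt that RefSeq gives for the mature strand. Both tags matched the RefSeq hairpin over all bases they share with it, 19 for Mir214 and 6 for Mir126a.

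Tags from the start of miR-214 fell on neighbouring bases. The annotated first base had 13 tags over the 6 libraries, and the base before it also had 13. The 2 forms are written here with the added base in capitals.
Mir214 tag from 164153569: acagcaggcacagacaggca
Mir214 tag from 164153568: Tacagcaggcacagacaggc
In lung the annotated base had 9 tags and the base before it 10. In kidney they had 1 and 2 tags, and in ovary 3 and 1. A further 2 lung tags began 2 nt before the annotated base. Each of these libraries thus had miR-214 starts on more than 1 base, and the counts are too small to set them apart.

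Unique tags numbered 29213 in ovary, 493121 in lung, 162270 in kidney, 78952 in liver, 33382 in brain and 42939 in spleen. Levels are counts per 1000000 unique tags (CPM), with exact Poisson 95% intervals. The intervals describe counting alone, because reads amplified by PCR and lacking molecular identifiers need not be independent molecules. A count of 0 allows 3 counts, which is 102.7 CPM in ovary, 6.08 in lung, 18.5 in kidney, 38.0 in liver, 89.9 in brain and 69.9 in spleen. Levels were also set under a scaling by trimmed M values (TMM), which divides ovary levels by 2.63 and kidney levels by 1.44 relative to lung. TMM values are given beside each ratio they move by over 1.5 times.

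Of the located marker microRNAs of other cell types, both kinds of ends are given. Mir142 of blood cells had 31 hairpin-end tags in spleen (722 CPM), 325 in lung (659 CPM), 17 in kidney, 9 in liver, 6 in ovary and 2 in brain, and mature starts of 2 in spleen and 1 in lung. Mir223, also of blood, had 7 hairpin-end and 6 mature-start tags in lung and 1 mature start in kidney. Mir451a of red cells had 1 hairpin-end tag in spleen, but its mature starts were 4 in lung and 2 in kidney, with none in spleen. Mir192, of kidney and liver epithelium, had mature starts of 9 in kidney, 5 in liver and 3 in lung, and 2 hairpin-end tags in kidney. Mir30a had mature starts of 2 in kidney and 1 in lung, and 2 hairpin-end tags in lung. Markers of blood were thus spread over several tissues, and Mir142 was the single one of these with tags in ovary. No tag located a hairpin of Mir9, Mir128, Mir150 or Mir194, so the brain label could not be checked against its microRNAs, and Mir122 and Mir124 were not analysed here. Mir199a-1, listed with miR-214 as a fibroblast marker, had mature starts of 22 in lung, 2 in kidney and 1 in ovary. It had no hairpin-end tag, and its mature sequence is held by 3 reference hairpins, so these tags may not be its own.

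At the hairpin ends, counted within 1 nt, the 4 members had 650 tags, of which 484 came from lung, 88 from ovary, 69 from kidney, 7 from liver and 2 from brain. Spleen had none. All 4 members had a hairpin-end tag in lung, kidney and ovary, whereas liver and brain had tags of miR-126a alone. The smooth muscle and mesenchymal members were highest in ovary and the endothelial member in lung, as the plot of hairpin-end levels shows. For miR-143 the ovary level rested on 3 tags and did not exceed that of lung beyond counting error.

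**Figure D1:**
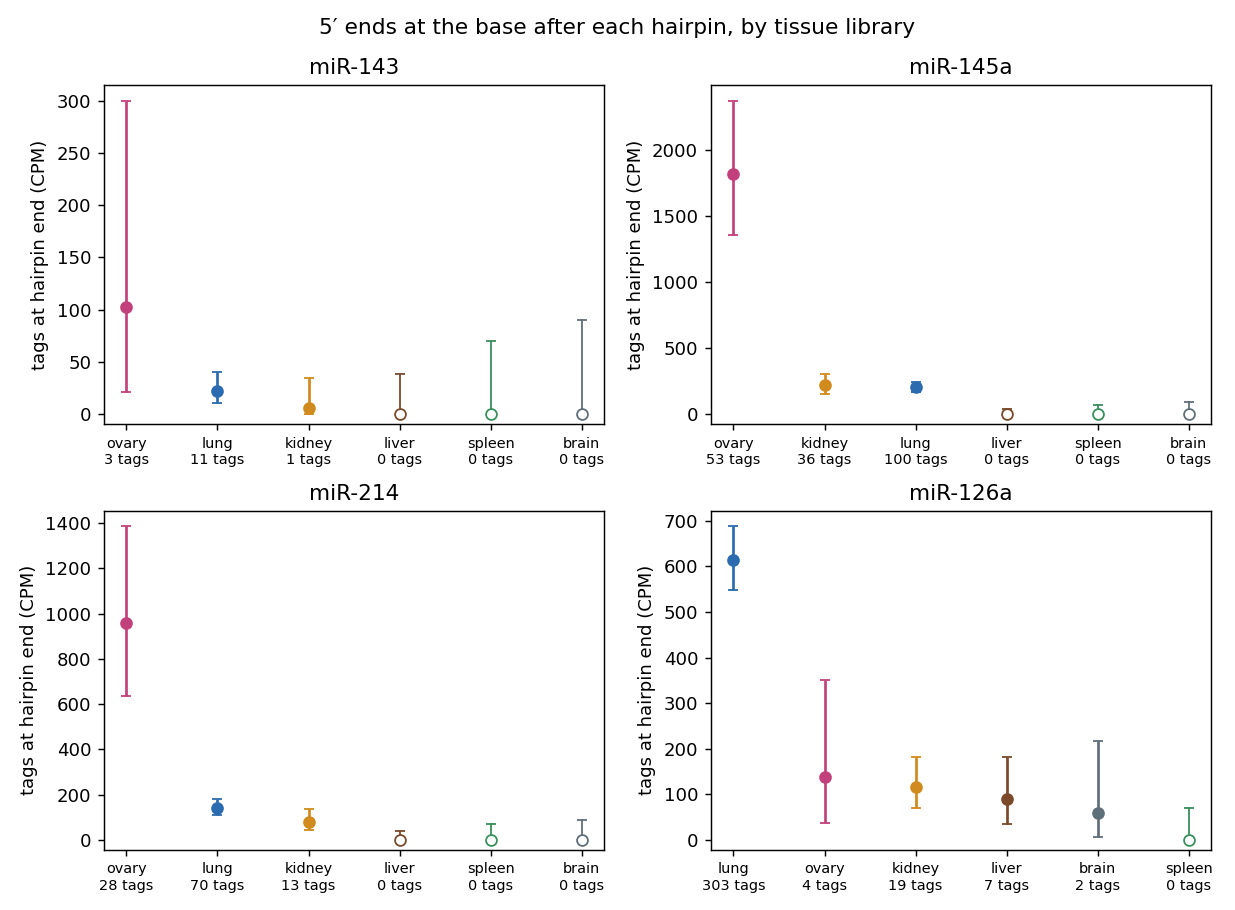
Tags at the hairpin end in CPM (y axis) in each tissue library (x axis, with tag numbers), in 1 panel per microRNA with its own scale. Filled points are levels with exact 95% Poisson intervals, and open points are counts of 0 with a line up to the level that 3 counts would give. Ovary leads for miR-145a at 1814 CPM and for miR-214 at 958 CPM, and lung leads for miR-126a at 614 CPM.

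miR-145a, which keeps smooth muscle in its contractile state, had its hairpin end at position 61807482 of chromosome 18 on the minus strand, 60 nt after the first base of the mature strand at 61807542. It held 53 tags in ovary, 36 in kidney and 100 in lung, and none in liver, brain or spleen. The levels were 1814 CPM in ovary (interval 1359 to 2373), 222 in kidney (155 to 307) and 203 in lung (165 to 247). Ovary stood apart from the other libraries, while kidney and lung did not differ beyond counting error (ratio 1.09, interval 0.726 to 1.62), and their order turned under TMM (0.758). The ovary level was 8.18 times the kidney level (interval 5.26 to 12.9) and 8.95 times the lung level (6.29 to 12.6). Under TMM these ratios were 4.49 (2.89 to 7.06) and 3.41 (2.39 to 4.80).

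miR-143 is made from the same primary transcript and acts with miR-145a in smooth muscle. Its mature strand began 1331 nt upstream of that of miR-145a, at 61808873, and its hairpin end lay at 61808852, 21 nt after the mature start. This end held 3 tags in ovary, 11 in lung and 1 in kidney, and none in the other libraries. The levels were 102.7 CPM in ovary (interval 21.2 to 300.1), 22.3 in lung (11.1 to 39.9) and 6.16 in kidney (0.156 to 34.3). The order was again ovary first, but ovary and lung did not differ beyond counting error (ratio 4.60, interval 0.825 to 17.4, and 1.75 under TMM). The 3 ovary tags equal the count that a 0 allows. Liver, brain and spleen have limits inside the ovary interval, so these libraries could not be told apart from ovary.

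miR-214, a microRNA linked to fibrosis, had its hairpin end at position 164153590 of chromosome 1 on the plus strand. It held 28 tags in ovary, 70 in lung and 13 in kidney. The levels were 958 CPM in ovary (interval 637 to 1385), 142 in lung (111 to 179) and 80.1 in kidney (42.7 to 137.0). Ovary exceeded lung 6.75-fold (interval 4.19 to 10.6) and kidney 12.0-fold (6.00 to 25.2), and lung and kidney did not differ beyond counting error (ratio 1.77, interval 0.972 to 3.49). Under TMM ovary exceeded lung 2.57-fold (1.60 to 4.04) and kidney 6.57-fold (3.30 to 13.8), and the ratio of lung to kidney of 2.56 then passed counting error (1.40 to 5.04). Liver, brain and spleen had no tag, and the limits of brain and spleen lie inside the kidney interval, so these libraries could not be told apart from kidney.

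miR-126a, which supports signalling by vascular growth factors in endothelium, had its hairpin end at position 26446944 of chromosome 2 on the plus strand. It held 303 tags in lung, 4 in ovary, 19 in kidney, 7 in liver and 2 in brain, and none in spleen. The levels were 614 CPM in lung (interval 547 to 688), 137 in ovary (37.3 to 351), 117 in kidney (70.5 to 183), 88.7 in liver (35.6 to 183) and 59.9 in brain (7.26 to 216). Lung stood apart from all of these, at 4.49 times ovary (interval 1.73 to 16.6), 5.25 times kidney (3.30 to 8.84), 6.93 times liver (3.32 to 17.4) and 10.3 times brain (2.81 to 85.1). Under TMM lung stood at 11.8 times ovary (4.56 to 43.5) and 29.6 times brain (8.13 to 246). No neighbours in the order from ovary to brain differed beyond counting error, and TMM turned the order of ovary and kidney (1.17 against 0.643).

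To set these differences against the libraries as a whole, all single-base ends with at least 20 tags over the 6 libraries were ranked in the same way. Of 2110 such ends, 47.8% were called, meaning that the lower bound of the ratio of the highest to the second library was above 1. Called ends led by ovary made up 0.948% of the 2110 ends, and called ends led by lung 12.9%. Ends that a library led without passing the bound are not in these shares. Under TMM, the called ends led by ovary made up 0.237% and those led by lung 28.5%. Of the members, 3 had enough tags, and all 3 were called, miR-145a and miR-214 for ovary and miR-126a for lung. Since the members were chosen by this contrast, nothing is read from their count. miR-143, with 14 tags at its strongest base, was below the minimum.

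The hairpin ends were sharp. Of the tags within 10 nt of the end of miR-145a, 189 of 189 began at the same base (100%, exact interval 98.1 to 100), in ovary, kidney and lung alike. For miR-126a the figure was 329 of 335 tags (98.2%, interval 96.1 to 99.3), and the other 6 began 1 nt further on. For miR-143 it was 14 of 15 tags (93.3%, interval 68.1 to 99.8).

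miR-214 had a second, weaker group of ends. Of the tags within 10 nt of its hairpin end, 110 of 117 began at the strongest base (94.0%, interval 88.1 to 97.6). A single tag began 1 nt later, and 6 tags began 28 to 30 nt after the mature start, with 3 from lung, 2 from kidney and 1 from ovary. The plot of tags around the hairpins shows the ends as separate spikes.

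**Figure D2:**
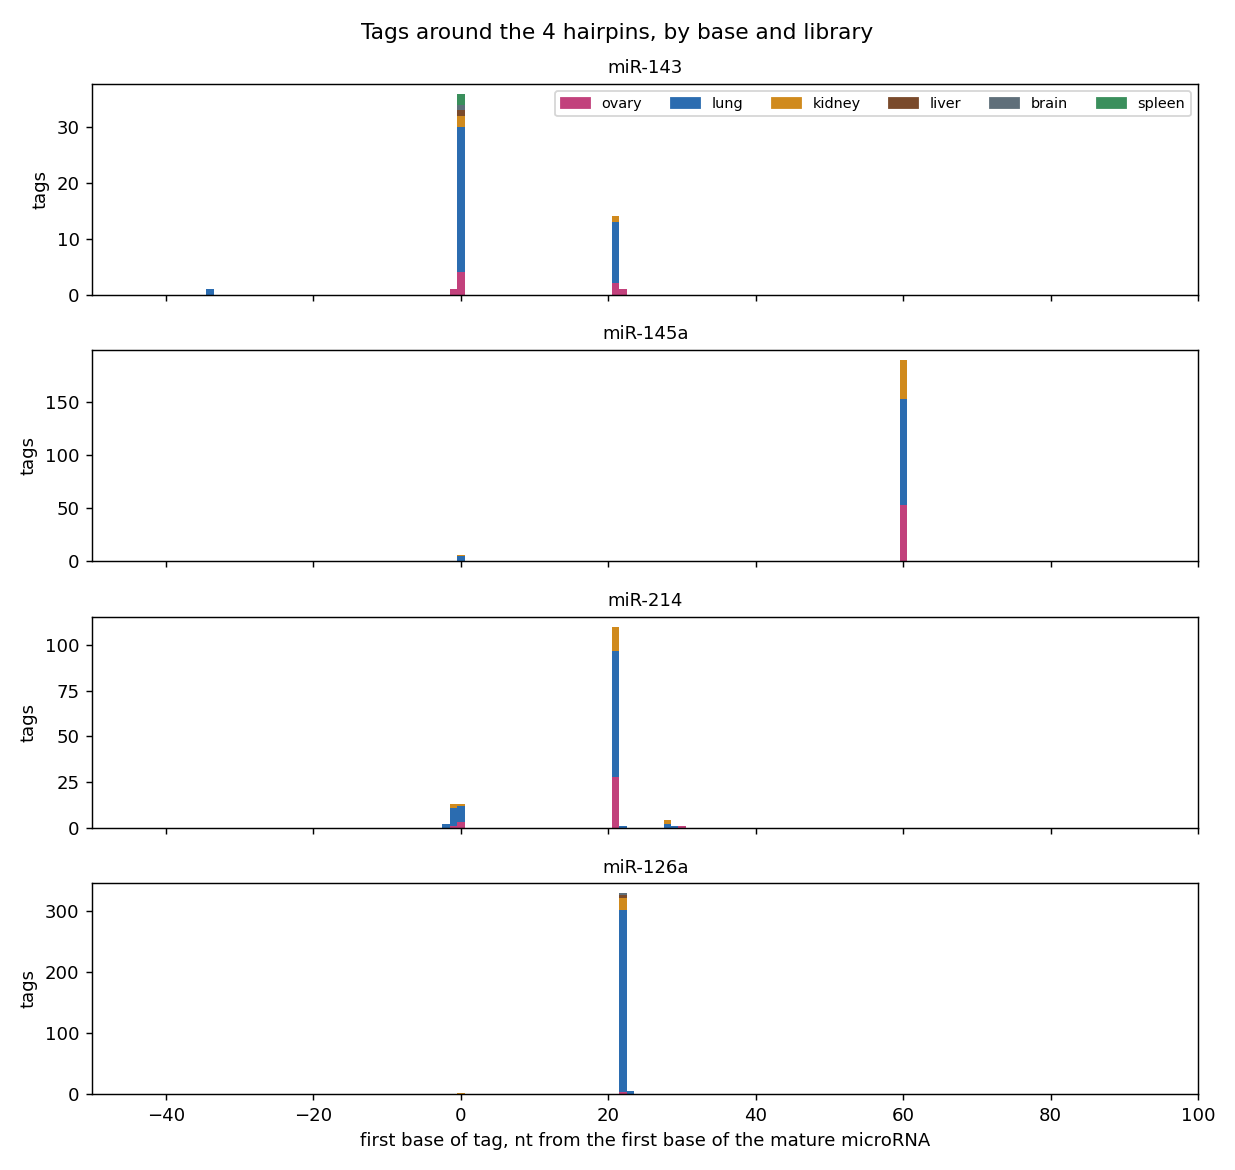
Number of tags (y axis) by the distance of their first base from the first base of the mature microRNA (x axis, in nt), with 1 panel per microRNA and colours for the 6 libraries. Each hairpin end is a spike of 1 base, at 21 nt for miR-143 and miR-214, 22 nt for miR-126a and 60 nt for miR-145a, and miR-143 is the member with more tags at 0 than at its hairpin end.

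The members differed in how their tags divided between mature start and hairpin end, a division that does not depend on library depth. By its distance to the hairpin end, the mature start lies on the 5′ arm for miR-145a and on the 3′ arm for the other members. The share thus sets unlike mature starts side by side. For miR-143, 37 tags began at the mature start and 15 at the hairpin end, so that the hairpin end had 28.8% of the sum (exact interval 17.1 to 43.1). For miR-214 the hairpin end had 111 of 137 tags (81.0%, interval 73.4 to 87.2). For miR-145a it had 189 of 195 tags (96.9%, interval 93.4 to 98.9), and for miR-126a 335 of 338 (99.1%, interval 97.4 to 99.8). The intervals of miR-143 and miR-214 overlap with no other member, and those of miR-145a and miR-126a overlap with each other.

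The division was also set out by library, although several libraries had few tags. For miR-214 the hairpin end took 87.5% in ovary (28 of 32 tags, interval 71.0 to 96.5), 78.7% in lung (70 of 89, interval 68.7 to 86.6) and 81.2% in kidney (13 of 16, interval 54.4 to 96.0). For miR-143 it took 37.5% in ovary (3 of 8, interval 8.52 to 75.5) and 29.7% in lung (11 of 37, interval 15.9 to 47.0). These intervals overlap within each member, so a difference between libraries in the division was not detectable at this depth. The mature start of miR-143 was the one member end present in all 6 libraries, with 5 tags in ovary, 26 in lung, 2 in kidney, 1 in liver, 1 in brain and 2 in spleen. In liver, brain and spleen it was also the single trace of the miR-143 and miR-145a transcript apart from 1 spleen tag. By level, the mature start of miR-143 had 171 CPM in ovary (interval 55.6 to 399) and 52.7 in lung (34.4 to 77.3), which did not differ beyond counting error (ratio 3.25, interval 0.973 to 8.59, and 1.24 under TMM).

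Of the 101 other hairpins located, 45 had a hairpin-end tag and 5 had at least 20. To set the division beside them without favouring hairpins rich in end tags, all 27 others with at least 20 tags at hairpin end plus mature start were taken, a choice made after the data had been seen. These were located through tags at their mature starts, so a hairpin with end tags alone could not enter. Their median share at the hairpin end was 24.6%, with 7 at 0. The 7 include Mir199a-1, whose 25 mature-start tags may come from other hairpins, since 3 reference hairpins hold its mature sequence. miR-143 lay in the midst of the 27, with 14 below its 28.8% and 13 above, while 3 exceeded 90%. Mature starts of both arms are set together here, so the shares are not all of one kind.

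The plot of this share shows the spread. miR-26b, for which no hairpin-end tag was found beside 403 mature starts (exact interval up to 0.911%), and let-7d, with 4 hairpin-end tags beside 142, stood at the low end. let-7b, a broadly expressed microRNA that restrains growth genes, had 1376 hairpin-end tags beside 1839 mature starts (42.8%), and miR-146a of immune cells had 59.7%. At the high end were miR-24-1 with 96.7%, miR-29c with 98.4% and miR-142a of blood cells with 99.2%.

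**Figure D3:**
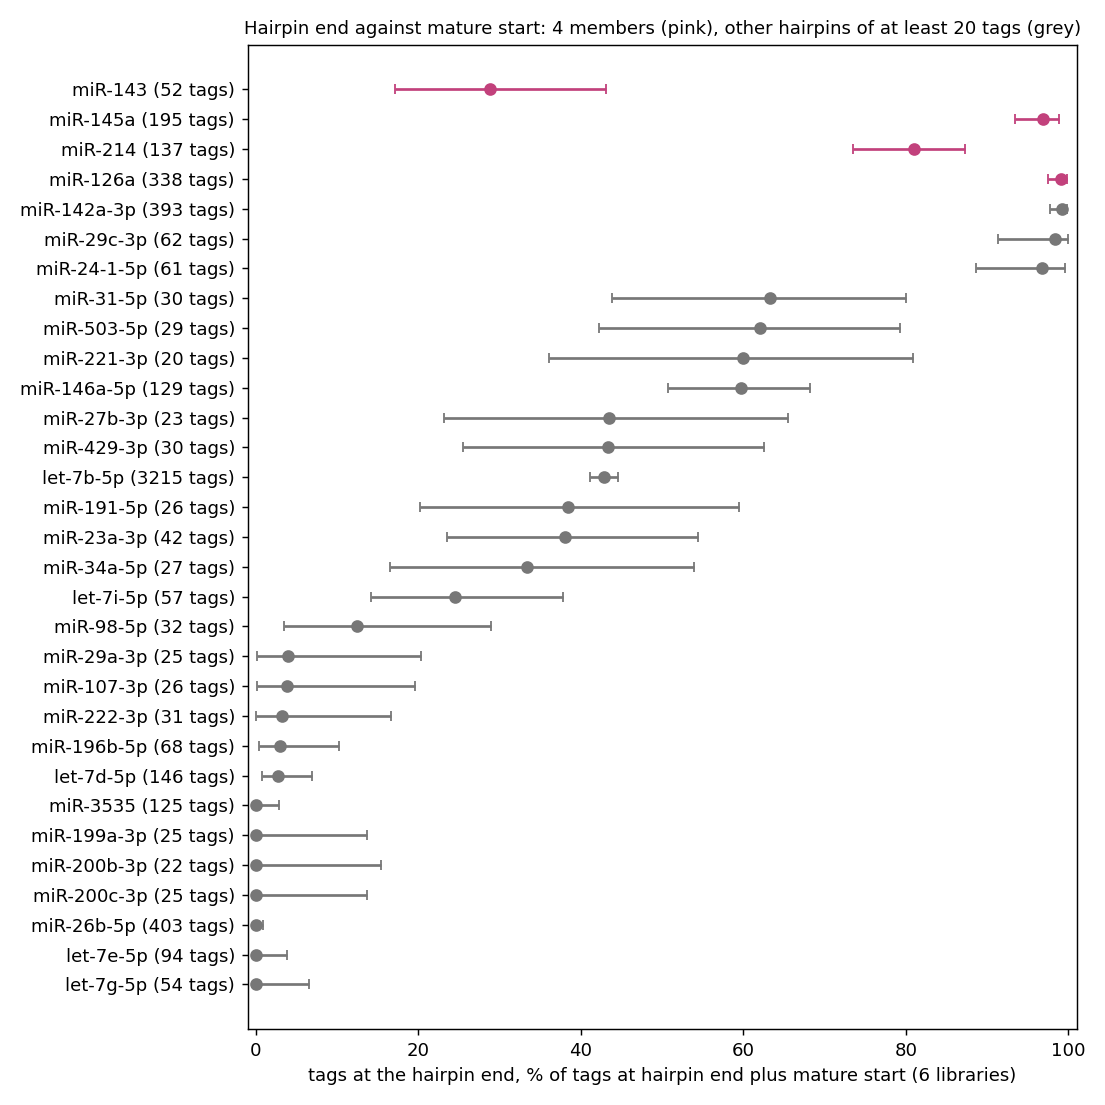
Share of tags at the hairpin end (x axis, in % of the tags at hairpin end plus mature start, 6 libraries summed) for the 4 members in pink and the 27 other located hairpins with at least 20 such tags in grey. Points are shares and bars exact 95% Clopper-Pearson intervals. Mature starts of both hairpin arms are shown together. miR-143 at 28.8% lies near the median of the others at 24.6%, and miR-126a lies beside miR-142a above 99%.

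On the transcript shared by miR-143 and miR-145a, the 2 kinds of ends ran in opposite orders. The mature starts compared are not alike, since that of miR-145a lies 60 nt and that of miR-143 21 nt before the hairpin end. By these distances miR-145a starts on the 5′ arm and miR-143 on the 3′ arm, and different cuts make these starts. At the hairpin ends miR-145a had 53 tags and miR-143 3 in ovary (ratio 17.7, exact interval 5.73 to 88.4), 36 and 1 in kidney (36.0, interval 6.06 to 1461), and 100 and 11 in lung (9.09, interval 4.87 to 18.8). At the mature starts miR-145a had 5 tags and miR-143 26 in lung (ratio 0.192, interval 0.0577 to 0.509). Over the 6 libraries the ratio of miR-145a to miR-143 was 12.6 at the hairpin ends (interval 7.45 to 23.0) and 0.162 at the mature starts (interval 0.0559 to 0.388). Without the lung library, which holds 11 of the 15 miR-143 tags, the first was 22.25 and the second 0.0909. The 3 ratios at the hairpin ends overlap in their intervals, so a difference between tissues was not detectable at this depth.

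Away from these 4 positions the windows around miR-143 and miR-145a were almost bare. Within 2 kb of either mature start, ovary had 61 tags and kidney 40, and every one of them lay within 1 nt of a mature start or hairpin end. Lung had 151, of which 9 lay elsewhere. One of these began 34 nt before the mature start of miR-143, and 8 began 1600 to 1993 nt after that of miR-145a, on 8 separate bases. The single spleen tag elsewhere began in the same far stretch, at 1987 nt. The Mir214 window was similar, with 8 tags near the hairpin at other bases, 1 upstream and 6 downstream among 152 in all. Its hairpin end held 84.8% of the window in ovary (28 of 33 tags, interval 68.1 to 94.9), 70% in lung (70 of 100, interval 60.0 to 78.8) and 72.2% in kidney (13 of 18, interval 46.5 to 90.3). The strongest other bases lay 28 nt after the mature start, with 2 lung and 2 kidney tags, and 211 nt after it, with 3 lung tags.

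The Mir126a window held many more ends away from the hairpin. Of 1250 tags within 2 kb, 335 were at the hairpin end (26.8%, exact interval 24.4 to 29.3). They fell into 9 stretches separated by more than 100 nt, as the map of the window shows. Upstream stretches held 27 tags (offsets -1996 to -1976 nt from the mature start), 11 (-1002 to -937), 33 (-709 to -677) and 50 (-496 to -363). Downstream stretches held 60 tags (210 to 342 nt after it), 2 (499 to 570), 60 (712 to 858) and 668 (1004 to 1265). Ends in the last stretch were thus the most numerous, and none was found on this strand from there to the edge of the window. Unlike the hairpin end, the last stretch was spread over 134 distinct bases, the strongest of which lay 1224 nt after the mature start and held 115 tags in lung, 2 in ovary, 3 in liver, 1 in brain and 2 in spleen. The next strongest, at 1206 nt, held 25 tags in lung and 1 in kidney.

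**Figure D4:**
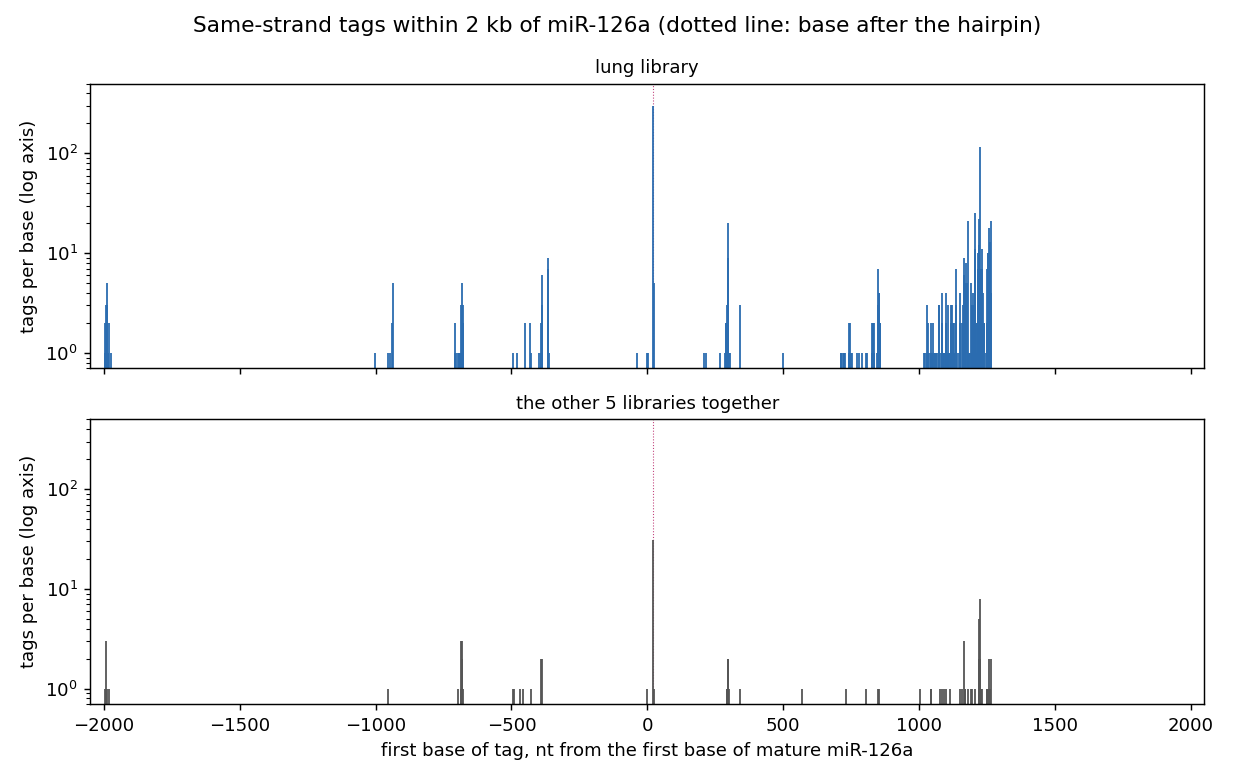
Same-strand tags per base (y axis, log scale) against the distance of their first base from the mature start of miR-126a (x axis, in nt), for the lung library above and the sum of the other 5 libraries below. The dotted line marks the hairpin end, with 298 lung tags at its strongest base, and the dense block of ends on the right stops at 1265 nt.

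The other ends of the Mir126a window, called host ends here without an annotation that assigns them to a gene, were highest in lung, as the hairpin end was. Leaving out hairpin end and mature start, lung had 820 tags (1663 CPM, interval 1551 to 1781), ovary 13 (445 CPM, 237 to 761), kidney 55 (339 CPM, 255 to 441), spleen 7 (163 CPM, 65.5 to 336), liver 12 (152 CPM, 78.5 to 265) and brain 5 (149.8 CPM, 48.6 to 350). Lung exceeded ovary 3.74-fold (interval 2.17 to 7.05), kidney 4.91-fold (3.73 to 6.57), spleen 10.2-fold (4.93 to 25.5), liver 10.9-fold (6.23 to 21.3) and brain 11.1-fold (4.74 to 34.3). Under TMM lung exceeded ovary 9.82-fold, spleen 21.4-fold and brain 32.1-fold. Counted as distinct ends per unique tag, the lung to ovary ratio was 1.10, with 222 ends in lung and 12 in ovary. Distinct ends need not rise in proportion to depth, and lung is the deepest library, so this ratio does not show equal levels.

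Set against its own host, the hairpin end of Mir126a had a like share in every library with tags there. It made up 27.0% of hairpin-end and host tags in lung (303 of 1123, interval 24.4 to 29.7), 23.5% in ovary (4 of 17, interval 6.81 to 49.9), 25.7% in kidney (19 of 74, interval 16.2 to 37.2), 36.8% in liver (7 of 19, interval 16.3 to 61.6) and 28.6% in brain (2 of 7, interval 3.67 to 71.0). Spleen had 7 host tags and no hairpin-end tag, and its interval reaches 41.0%. All 6 intervals overlap, so a difference between tissues in this share was not detectable. All 7 spleen tags lay in the last stretch.

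The hairpin ends most like each other in tissue pattern were those of miR-145a and miR-214. Likeness was measured as the cosine of the CPM over the 6 libraries, a description whose points share library depth. It was 0.999 between miR-145a and miR-214, 0.997 between miR-143 and miR-214, and 0.993 between miR-143 and miR-145a, against 0.334 to 0.417 between miR-126a and the other members. Among the 2110 ends of at least 20 tags, the miR-214 end was the nearest to both miR-145a and miR-143. These are the values the members were chosen from, so their nearness is no support for a shared pattern.

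Ends outside the members were named by the same measure. Position 73751794 on the plus strand of chromosome 18 was among the 3 nearest to miR-145a, miR-214 and miR-143, with 7 ovary, 14 lung and 1 kidney tags. The third for miR-145a was position 51751668 on the minus strand of chromosome 9 (cosine 0.994), and the third for miR-214 was position 50406452 on the minus strand of chromosome X (0.991). For miR-143 position 83936723 on the plus strand of chromosome 6 came second (0.996). The ends nearest to miR-126a were at 89365137 on the minus strand of chromosome 8 (0.990), 69339441 on the plus strand of chromosome 9 (0.987) and 55136527 on the plus strand of chromosome 14 (0.982). Genes at these positions were not analysed here. The chromosome X position lies downstream, on the same strand, of the located hairpin ends of Mir503 (50407163) and Mir322 (50407445).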

How the data were processed

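PARE libraries of 6 tissues were analysed, 1 per tissue. Tags were aligned with Bowtie to mm9, per the submitters' processing notes. The version is not given in the sources used here. In the deposited lists a line holds a tag, where it aligned and how often it was read, and the authors' read counts were used as tag counts. The deposited score equals 70 for each read up to a ceiling of 999 and was not used. Sequences listed at more than 1 location were left out, and none lay in the member windows. The depths behind CPM stand in the results.

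Members and lists were chosen with earlier results of these data known. The hairpin end is the strongest base 15 to 80 nt after the mature start. Ratios carry exact conditional binomial intervals and shares Clopper-Pearson intervals, both at 95%, computed with Python 3.11.15 and SciPy 1.17.1. With 1 library per tissue no test between tissues was possible. Other hairpins were located by tags that match a RefSeq mature sequence over at least 16 nt, starting within 2 nt of its first base. For an annotated 3′ arm the end was sought within 3 nt of its length, and otherwise 50 to 80 nt after the start. The text names the 4 members, the 5 other hairpins with the most hairpin-end tags, the 2 strongest other ends per window, and per member the 3 most alike ends over 10 kb away. Interval and scaling functions were tested on simulated data. The trimmed mean of M values was planned with a count package but computed directly, since the counts stand inside a text field, over 2 kb windows with lung as the library compared to. Alternatives were the exact base, 3 nt around it, all listed tags, other scalings, distinct ends, smaller windows and other minimum counts.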

Additional observations from a re-analysis of the deposited data

Results flagged for a closer look

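Tags on the strand opposite to the members enter no comparison above, and some exceeded the 3 counts that a count of 0 allows. Opposite Mir126a there were 39 tags in liver, 134 in lung, 6 in ovary, 5 in spleen, 16 in kidney and 1 in brain. They began 1689 to 2000 nt after the mature start of miR-126a, beyond the last same-strand end at 1265 nt, and Agpat2 is a neighbour of Mir126a in RefSeq. By level liver came first with 494 CPM (exact interval 351 to 675), followed by lung with 272 (228 to 322), an order unlike that of the Mir126a ends. Opposite miR-145a lung had 7 tags, 478 to 663 nt after its mature start, and kidney had 1 tag at 683 nt. The 7 tags counted opposite miR-143 are the same lung tags. Their part in the results was not tested.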

How the results depend on the processing

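Of 35 ratios between libraries set under a trimmed mean of M values, most of them added after the data had been seen, 20 moved by over 1.5 times and 2 turned, miR-145a kidney over lung to 0.758 and miR-126a ovary over kidney to 0.643, neither of which differed beyond counting error before. This scaling gave 4.49 for miR-145a (ovary over kidney), 2.57 for miR-214 (ovary over lung), 11.8 for miR-126a (lung over ovary) and 9.82 for the host ends of Mir126a (lung over ovary), and 62.0% of ends called. For the same host ends, distinct ends per unique tag gave 1.10, and 1.62 when set against all distinct ends of each library, an alternative chosen after the data had been seen. With at least 50 tags, 70.4% of ends were called. Windows of 1 kb and 500 nt each raised the share at the hairpin end to 28.3% for miR-143, against 6.05% within 2 kb, where the partner hairpin is counted too, and to 96.9% for miR-145a, against 73.5%. For miR-126a they gave 60.5% and 74.4%. Within 5 nt, 99.1% of miR-214 tags began at the strongest base. Leaving out 1 library at a time, also chosen afterwards, gave shares from 3.81% (without lung) to 6.73% for miR-143 and from 69.4% to 84.0% for miR-145a, sharpness of 75.0% to 100% for miR-143, and 10.9 to 22.25 for miR-145a over miR-143, the highest without lung. No paired analysis was possible because each tissue has 1 library. Depth limits ovary, brain and spleen most. The causes of these changes were not tested.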

Other observations

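Mir199a-2 is a neighbour of Mir214 in RefSeq and lies in the same host gene, Dnm3os, but its own tags could not be followed. The sequence of miR-199a-3p is held by 3 reference hairpins, Mir199a-1, Mir199a-2 and Mir199b. Its mature-start tags, 22 in lung, 2 in kidney and 1 in ovary, were listed at Mir199a-1 on chromosome 9 alone, so a single listed location does not mean a single possible one. miR-214-3p and miR-126a-3p each occur in 1 reference hairpin.

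The tags at 1 base were not all alike in sequence. At the strongest base of the miR-126a hairpin end, 329 tags had 9 distinct sequences, the most frequent of them with 242 tags, and at that of miR-145a 189 tags had 8, the most frequent with 150. Over the first 19 nt, 7 distinct sequences remained for miR-126a and 6 for miR-145a, so the tags did not differ in length alone. Errors of reading were not told apart from other differences. At both ends tags of 21 nt prevailed, with 250 and 157, whereas at the miR-214 end 80 of 110 tags had 20 nt.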
